A study of Rattus norvegicus with 16 samples.

Results

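The 4 arrays of rat myelinating cultures given human FGF2 were compared directly with the 4 arrays given F2V2, a shortened form of the same protein. These 8 of the 16 arrays of the series were chosen by their treatment labels, and the 4 control arrays entered the fit to show on which side of untreated cultures a gene moved. All 3 groups came from the same kind of culture, dissociated spinal cord of Sprague Dawley rat embryos plated on astrocytes grown from neurospheres, which forms neurons, astrocytes, cells of the oligodendrocyte lineage and microglia. Cultures were treated from day 18 in vitro and harvested 24 h later, on day 19. They received 100 ng/ml FGF2, 100 ng/ml F2V2 or no ligand. A further 4 arrays labelled wtFGF2, whose dose is not given, were left out of the tests reported here and entered 1 alternative fit only. F2V2 lacks the 26 N-terminal amino acids of FGF2. Per the methods FGF2 was bought from Peprotech and F2V2 was supplied by ProCore Biomed, so the ligand and its preparation cannot be told apart. A figure legend of the study calls the array replicates technical while the deposited design speaks of independent cultures, so every p-value measures the spread between these arrays only.

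Fibroblast growth factors bind receptor tyrosine kinases encoded by 4 genes, together with heparan sulfate, and the receptors signal through the ERK kinase cascade, phospholipase C and PI3 kinase. Binding of full-length FGF2 is broad, whereas the study describes F2V2 as acting selectively through FGFR1. In the oligodendrocyte lineage FGF2 is known as a mitogen of progenitors and as an inhibitor of myelin gene expression, and astrocytes and neurons carry FGF receptors too. The annotation used here gave no cluster the symbol Fgf2, Fgfr1, Fgfr2 or Fgfr3, so these were not analysed here. Fgfr4 was measured, averaging 4.55 with FGF2, 4.66 with F2V2 and 4.94 in control on the log2 scale, close to the floor of the arrays.

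Expression was read as log2 intensity on a whole-transcript array, and the test covered 15653 transcript clusters, those whose annotation named a gene. Arrays of one group resembled each other closely, with correlations of at least 0.9973 within FGF2, 0.9957 within F2V2 and 0.9971 within control, and an FGF2 array correlated with an F2V2 array at 0.9906 to 0.994. The median SD of a cluster over 4 arrays was 0.0803 with FGF2, 0.109 with F2V2 and 0.091 in control. No array stood apart. A cluster was called where the adjusted p of limma's moderated test (Benjamini-Hochberg over all 15653) was under 0.05 and the difference at least 1.4-fold. Group means under log2 5 were taken as near the floor of the arrays, and a fold change against such a mean as a lower bound.

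Between FGF2 and F2V2, 907 clusters were called (5.79%), of which 452 were higher (2.89%) and 455 lower (2.91%) with FGF2. With 1 cluster kept for each of 14557 genes, the one with the highest mean, 437 genes were higher (3.00%) and 440 lower (3.02%), together 6.02%. These shares over all genes are the background for the counts of list members given below. For the same genes, 19.4% were called between FGF2 and control and 9.60% between F2V2 and control. The median gene differed by 0.10 in absolute log2 units between the ligands, and the differences ran from -2.42 to 4.60. At least 2-fold differences were called for 184 clusters, 106 higher and 78 lower with FGF2. The 4 FGF2 and 4 F2V2 arrays did not overlap for 869 of the 907 called clusters, against 25.1% of all clusters tested. In bulk cultures, fewer cells of a type and less RNA per cell cannot be told apart.

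Most called genes had responded more strongly to FGF2, relative to control, than to F2V2. The sign of the difference between the ligands was set against the sign of their mean response over control, a quantity whose error is independent of that difference in this balanced design. FGF2 lay further out for 818 of the 907 called clusters (90.2%) and F2V2 for 89. Of those 89, 10 were higher and 79 lower with FGF2. FGF2 also lay further out for most genes in every class of response size, called or not, as given below. On the level of single genes, 189 of the 437 higher ones were also called above control with both ligands and 215 were called above control with FGF2 alone. Among the 440 lower ones, 162 were called below control with both ligands, 174 were called below control with FGF2 alone, 56 were called above control with F2V2 alone and 6 above control with both. An effect called with one ligand and not with the other is not by itself a difference, and for all of these genes the difference is the tested one. The control mean lay between the ligand means for 181 called clusters.

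**Figure D1:**
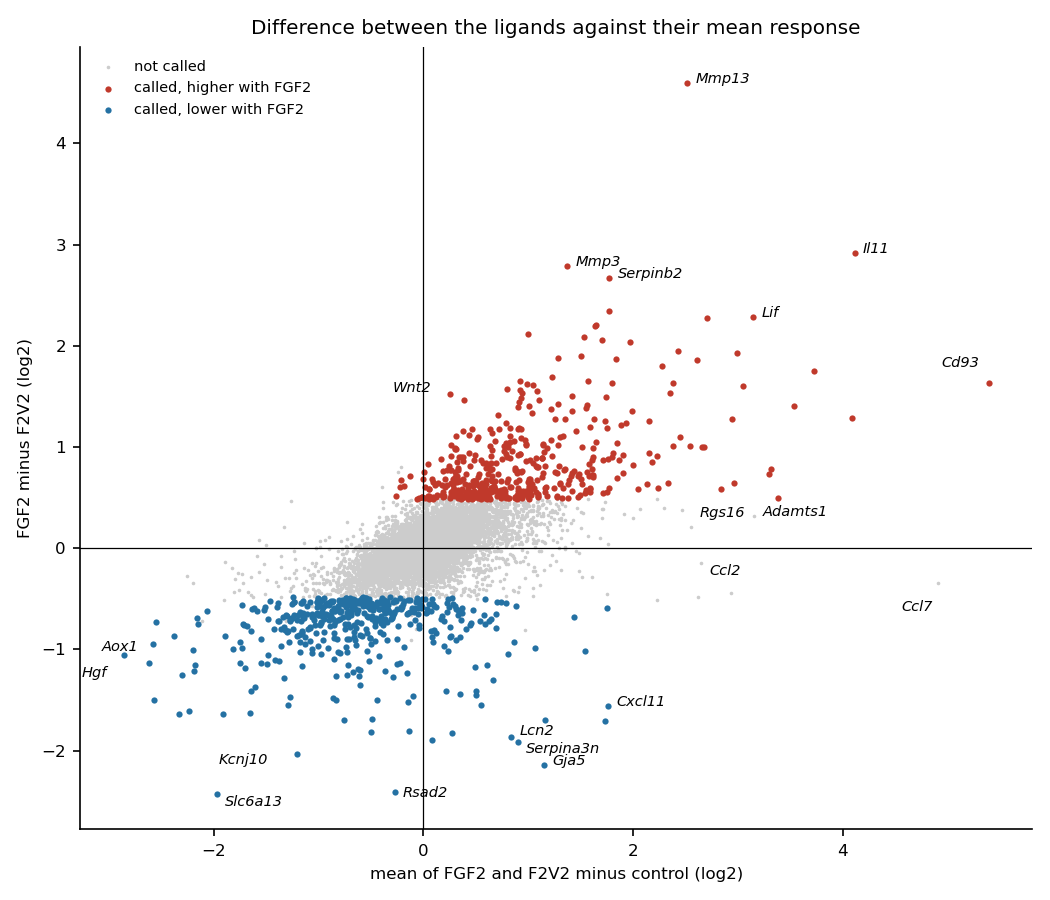
Each point is 1 of 14557 genes, placed by the mean response of both ligands over control (x, log2) and by FGF2 minus F2V2 (y, log2), with called genes in red (higher with FGF2) and blue (lower with FGF2). Most called genes lie in the upper right and lower left, where FGF2 moved further from control than F2V2, while Lcn2, Serpina3n, Gja5 and Cxcl11 lie in the lower right, where F2V2 moved further.

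The size of the response and the size of the ligand difference went together. Among 5651 genes whose mean response was under 0.1 log2 units, 0.849% were called between the ligands. The share was 5.8% of 2828 genes at 0.25 to 0.5, 21.5% of 1463 genes at 0.5 to 1, 54.4% of 450 genes at 1 to 2 and 76.9% of 65 genes above 2. Called or not, FGF2 lay further out for 54.6% of genes under 0.1, 66.1% at 0.1 to 0.25 and 82.1% at 0.25 to 0.5. This share was 89.8% at 0.5 to 1, 92.0% at 1 to 2 and 92.3% above 2. In the class above 2 FGF2 lay further out by a median of 0.94 log2 units.

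Cytokines of the interleukin-6 family, which signal through a shared receptor chain to STAT3, were among the largest differences. Il11, encoding interleukin-11, read 10.31, 10.51, 10.57 and 10.45 with FGF2, against 8.03, 7.72, 7.29 and 7.13 with F2V2 and 5.12, 4.57, 4.60 and 5.26 in control. All FGF2 arrays lay above all F2V2 arrays, and these lay above all control arrays (log2 difference 2.92 ± 0.19 SE, 7.55-fold, adjusted p = 3.56e-07 for FGF2 against F2V2). Lif, encoding leukemia inhibitory factor, read 10.63, 10.65, 10.48 and 10.40 with FGF2, against 8.31, 8.42, 8.23 and 8.07 with F2V2 and 6.25, 6.18, 6.31 and 6.27 in control. The 3 groups were again separate, with FGF2 4.87-fold above F2V2 (adjusted p = 4.48e-09). Clcf1, a further ligand of the family, read 9.19, 9.42, 9.22 and 9.41 with FGF2, against 7.83, 7.90, 7.60 and 7.50 with F2V2 and 5.40, 5.34, 5.54 and 5.56 in control (log2 difference 1.60 ± 0.09 SE, 3.04-fold, adjusted p = 1.25e-07). Of 20 measured genes of the interleukin-6 and interleukin-1 families and their receptors, 4 were higher and 3 lower with FGF2, with a median difference of -0.07 against 0.01 over all genes. The fourth higher one was Il1rn, the interleukin-1 receptor antagonist, at 9.78 with FGF2, 9.04 with F2V2 and 6.11 in control. The lower ones were Lifr, the receptor for Lif (9.09 with FGF2, 9.89 with F2V2 and 10.03 in control), and the interleukins Il1a and Il1b. Il1b averaged 4.23 with FGF2, 4.94 with F2V2 and 4.23 in control, so that its values lay near the floor.

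**Figure D2:**
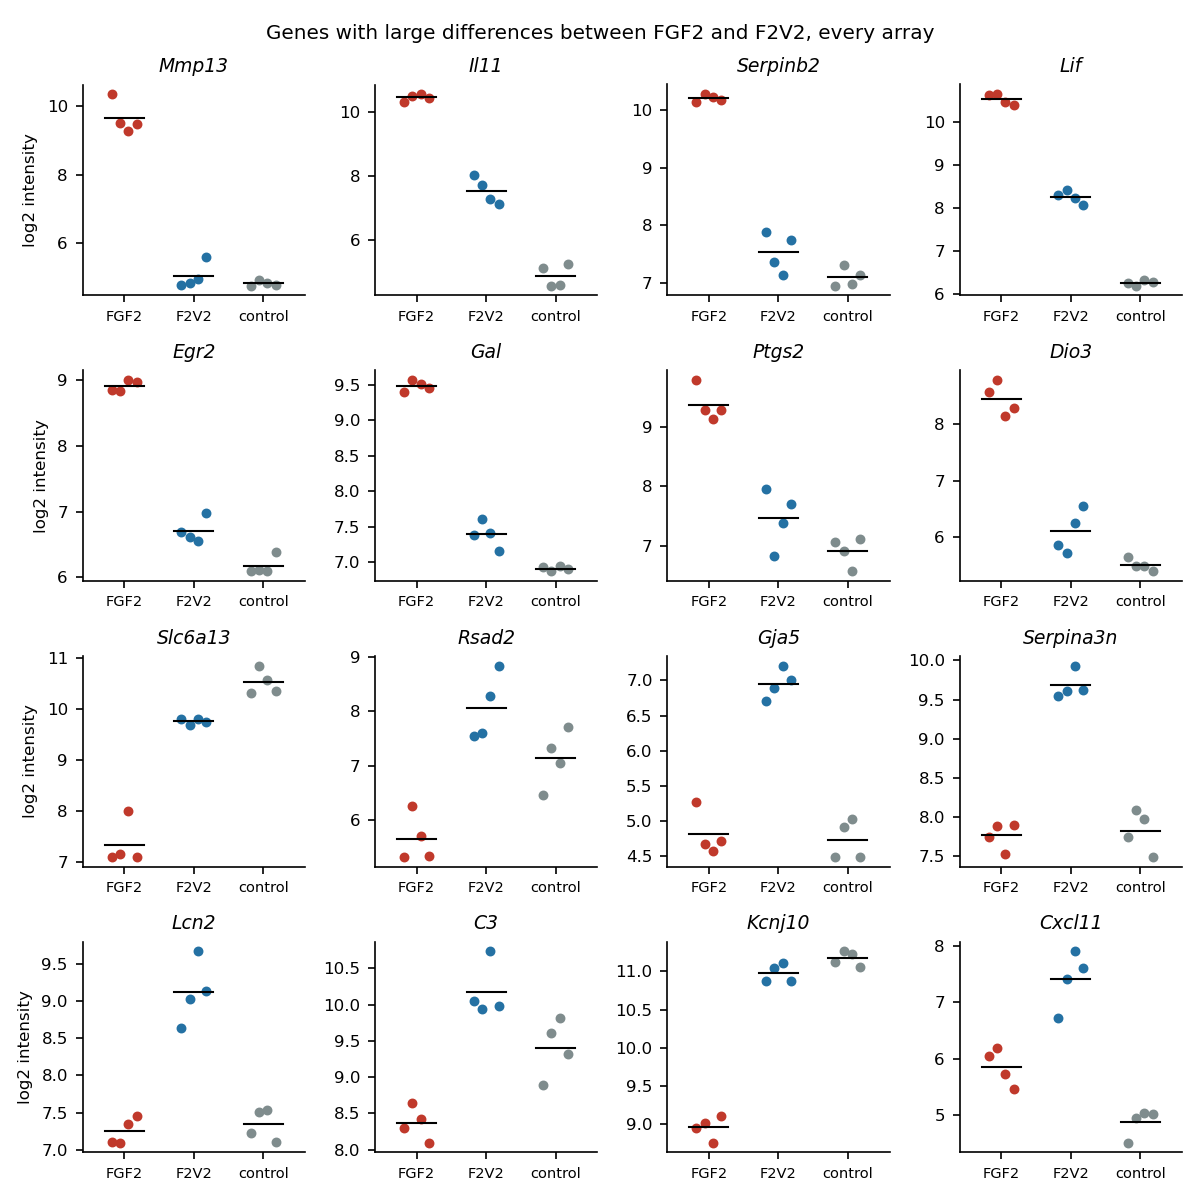
Log2 intensity (y) of 16 genes on each of the 4 FGF2, 4 F2V2 and 4 control arrays (x), with the group mean as a bar. Mmp13, Il11, Serpinb2, Lif, Egr2, Gal, Ptgs2 and Dio3 were higher with FGF2, and the other 8 genes lower. For Gja5, Serpina3n and Lcn2 the F2V2 arrays stand above both other groups.

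Secreted proteases and the proteins that regulate them differed in both directions. Mmp13, the collagenase-3 gene, gave the largest difference of all genes and read 10.35, 9.50, 9.28 and 9.48 with FGF2, against 4.80, 4.85, 4.95 and 5.60 with F2V2 and 4.77, 4.93, 4.86 and 4.80 in control. FGF2 arrays stood far above both other groups, while 3 of the 4 F2V2 arrays lay within or next to the control range, near the floor of the arrays (log2 difference 4.60, 24.3-fold, adjusted p = 2.98e-08). Mmp3, encoding stromelysin-1 and lying on the same chromosome, read 9.47, 9.58, 9.38 and 9.34 with FGF2, against 6.78, 6.70, 6.46 and 6.66 with F2V2 and 6.71, 6.93, 6.78 and 6.28 in control. The F2V2 and control arrays overlapped and FGF2 lay 6.91-fold above F2V2 (adjusted p = 1.94e-08). Mmp9 (log2 difference 1.06), Mmp14 (0.49) and Adamts9 (1.27) were also higher. In the other direction stood Adamts12 (-1.54), Mmp2 and Timp4, an inhibitor of these proteases, which read 6.64, 6.71, 6.65 and 6.81 with FGF2, against 8.24, 8.16, 7.99 and 8.30 with F2V2 and 8.90, 8.62, 8.50 and 8.85 in control (log2 difference -1.47 ± 0.09 SE, 2.77-fold, adjusted p = 2.25e-07). In all, 7 of 29 metalloproteinase and inhibitor genes were higher and 5 lower with FGF2.

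In plasminogen activation and coagulation 8 of 17 genes were higher with FGF2 and 2 lower, with a median difference of 0.11. Serpinb2, the inhibitor PAI-2 of urokinase, read 10.14, 10.28, 10.22 and 10.17 with FGF2, against 7.88, 7.37, 7.13 and 7.75 with F2V2 and 6.95, 7.31, 6.98 and 7.13 in control (log2 difference 2.67 ± 0.14 SE, 6.36-fold, adjusted p = 8.35e-08). Every FGF2 array exceeded every F2V2 array, and F2V2 arrays overlapped control. Its target Plau, the urokinase gene, averaged 8.49 with FGF2, 7.21 with F2V2 and 6.22 in control. Tfpi2, a serine protease inhibitor of the tissue factor pathway family, read 7.51, 7.55, 7.87 and 7.20 with FGF2, against 5.35, 5.31, 5.37 and 5.30 with F2V2 and 4.63, 4.71, 4.95 and 4.90 in control (log2 difference 2.20 ± 0.11 SE, 4.59-fold, adjusted p = 8.35e-08). The protease-activated receptor F2rl2 (log2 difference 1.62), thrombomodulin Thbd (1.16) and tissue factor F3 (0.49) were higher too, while Thbs2 and the anticoagulant Pros1 were lower.

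The promoters of Mmp13, Mmp3 and Il11 each hold an AP-1 site (TGACTCA or its reverse complement, searched on both strands), the binding site of Fos and Jun dimers. They are shown because these are the 3 largest differences, each as 120 bases of RefSeq sequence (build GRCr8) with the site in capitals. The windows are chr8:12782709-12782828, plus strand for Mmp13, chr8:12925161-12925280, plus strand for Mmp3 and chr1:78098432-78098551, plus strand for Il11.
Mmp13: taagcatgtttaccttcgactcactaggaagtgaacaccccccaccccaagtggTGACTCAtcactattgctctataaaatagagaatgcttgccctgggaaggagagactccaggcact
Mmp3: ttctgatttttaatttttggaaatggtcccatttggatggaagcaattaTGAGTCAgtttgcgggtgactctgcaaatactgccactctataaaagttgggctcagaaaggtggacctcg
Il11: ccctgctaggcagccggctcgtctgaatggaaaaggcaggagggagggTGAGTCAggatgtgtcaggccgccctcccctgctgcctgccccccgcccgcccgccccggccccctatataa
The site lay in 4.53% of all 27457 promoters of 300 bases (250 before to 50 after the start) and in 4.17% of the 11787 that belong to genes tested. It lay in 7.25% of the 345 promoters of genes higher with FGF2 and in 5.08% of the 354 promoters of genes lower with FGF2. Among the protease, coagulation, interleukin-6 and interleukin-1 family genes higher with FGF2 it lay in 4 of 11 promoters found. These include the promoters of Mmp13, Mmp3 and Il11 shown above. These shares are descriptions, and a match is not a bound site.

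Immediate early genes, switched on within minutes by growth factor signals, and feedback inhibitors of ERK included many genes higher with FGF2 after 24 h. Of 24 immediate early genes 11 were higher and 2 lower (median difference 0.36), and of 19 ERK feedback and ETS genes 7 were higher and 1 lower (median 0.39). Egr2, a zinc finger transcription factor that in Schwann cells drives myelination, read 8.85, 8.84, 9.0 and 8.98 with FGF2, against 6.69, 6.61, 6.55 and 6.99 with F2V2 and 6.09, 6.11, 6.09 and 6.38 in control (log2 difference 2.21 ± 0.10 SE, 4.62-fold, adjusted p = 1.94e-08). F2V2 arrays lay above control, but FGF2 arrays lay far higher. Dusp5, a nuclear ERK phosphatase, read 9.17, 8.99, 9.04 and 9.06 with FGF2, against 7.28, 6.84, 6.90 and 7.08 with F2V2 and 6.12, 5.92, 5.92 and 6.33 in control (log2 difference 2.04 ± 0.10 SE, 4.11-fold, adjusted p = 8.35e-08). Fosl1, an AP-1 subunit, read 9.96, 9.95, 9.75 and 10.01 with FGF2, against 8.60, 8.81, 8.57 and 8.07 with F2V2 and 5.39, 5.84, 5.69 and 5.82 in control (log2 difference 1.41 ± 0.14 SE, 2.65-fold, adjusted p = 1.22e-05). Arc (1.31), Fosb (1.07) and Egr1 (1.02) were higher with FGF2 as well. The exceptions were Ccn1 and Ccn2, matricellular proteins that are known targets of YAP and serum response factor. Ccn1 read 8.42, 8.04, 8.21 and 8.0 with FGF2, against 9.17, 8.87, 9.46 and 9.86 with F2V2 and 8.03, 8.56, 8.47 and 8.02 in control, so that the F2V2 arrays alone stood above control (log2 difference -1.17 ± 0.19 SE, 2.26-fold, adjusted p = 0.000624). Ccn2 varied widely between F2V2 arrays and read 7.32, 6.84, 6.88 and 6.72 with FGF2, against 8.09, 7.18, 8.76 and 9.55 with F2V2 and 7.0, 7.50, 7.41 and 6.75 in control (log2 difference -1.45 ± 0.38 SE, 2.73-fold, adjusted p = 0.0141). Its FGF2 and F2V2 arrays overlapped, and the call was lost in a plain analysis of variance. The feedback genes were not uniform either. Dusp6 (1.0) and Spry4 (0.91) were higher with FGF2, whereas for Spry1 and Etv5 the difference was -0.03 (95% interval -0.15 to 0.09) and 0.05 (-0.10 to 0.21), within 1.4-fold in both directions. Spry1 averaged 9.61 with FGF2, 9.64 with F2V2 and 8.17 in control, and Etv5 averaged 9.93 with FGF2, 9.88 with F2V2 and 8.49 in control.

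The promoters of Egr2 and Dusp5 hold CArG boxes, the sites of serum response factor. Capitals mark them in 120 bases of each, chr20:21054442-21054561, minus strand for Egr2 and chr1:262543654-262543773, plus strand for Dusp5 (GRCr8), where the Dusp5 window holds 2 boxes side by side.
Egr2: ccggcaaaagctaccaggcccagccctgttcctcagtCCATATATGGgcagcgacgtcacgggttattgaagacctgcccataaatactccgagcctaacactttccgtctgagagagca
Dusp5: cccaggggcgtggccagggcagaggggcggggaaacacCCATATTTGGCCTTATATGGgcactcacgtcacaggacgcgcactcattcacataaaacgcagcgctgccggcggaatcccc
A CArG box lay in 3 of the 12 promoters found for immediate early and ERK feedback genes higher with FGF2, and in 1.64% of all promoters. The 3 include the promoters of Egr2 and Dusp5 shown here.

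Growth factors and their receptors differed in both directions. Hbegf, a ligand of the EGF receptor, read 11.61, 11.61, 11.68 and 11.58 with FGF2, against 10.42, 10.43, 10.33 and 10.20 with F2V2 and 7.88, 8.09, 7.97 and 8.23 in control (log2 difference 1.27 ± 0.07 SE, 2.42-fold, adjusted p = 1.48e-07). Areg and Ereg, also EGF receptor ligands, differed by 1.17 and 0.87, both lower bounds with F2V2 means at the floor, while the receptor Egfr itself was lower with FGF2, at 8.71 with FGF2, 9.42 with F2V2 and 9.48 in control. Bdnf, the neurotrophin, read 7.74, 7.74, 7.80 and 7.90 with FGF2, against 6.49, 5.97, 6.06 and 6.41 with F2V2 and 6.06, 5.97, 6.07 and 6.28 in control (log2 difference 1.56 ± 0.11 SE, 2.95-fold, adjusted p = 5.08e-07). Its F2V2 arrays overlapped control. Inhba, the activin A subunit, read 8.65, 8.17, 8.22 and 8.43 with FGF2, against 6.94, 6.54, 7.19 and 6.86 with F2V2 and 6.57, 6.63, 6.70 and 6.90 in control (log2 difference 1.48 ± 0.13 SE, 2.8-fold, adjusted p = 5.4e-06), and both activin-binding antagonists Fst (1.12) and Fstl3 (1.25) and the BMP antagonist Grem1 (1.41) were higher as well. Tgfb3 averaged 10.64 with FGF2, 9.28 with F2V2 and 8.55 in control, Tgfb1 9.86 with FGF2, 9.17 with F2V2 and 8.51 in control. Smad3, a transducer of these signals, read 9.18, 8.90, 9.01 and 8.94 with FGF2, against 8.28, 8.31, 8.48 and 8.31 with F2V2 and 7.68, 7.67, 7.76 and 7.52 in control (log2 difference 0.66 ± 0.07 SE, 1.58-fold, adjusted p = 2.96e-05). Of 27 BMP and TGF-beta signaling genes 6 were higher and 4 lower with FGF2, and of 27 secreted growth factors 5 and 4. Flt1, a receptor for VEGF, read 8.20, 7.76, 7.89 and 7.65 with FGF2, against 6.01, 5.80, 5.88 and 6.33 with F2V2 and 4.94, 5.18, 5.14 and 5.15 in control (log2 difference 1.87 ± 0.12 SE, 3.65-fold, adjusted p = 4.08e-07), and 8 of 19 endothelial markers were at or above log2 5 in control. Hgf, hepatocyte growth factor, had the lowest mean response of all genes and read 6.44, 6.38, 6.38 and 6.38 with FGF2, against 7.50, 7.31, 7.67 and 7.33 with F2V2 and 9.77, 9.76, 9.84 and 9.77 in control. Both ligands lay below control and FGF2 lay 2.08-fold below F2V2 (adjusted p = 3.67e-07).

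In the FGF system itself 3 of 26 ligand, receptor and co-receptor genes were higher (11.5%) and 2 lower (7.69%), against 3.00% and 3.02% over all genes. Sdc1, the heparan sulfate proteoglycan syndecan-1, read 10.0, 9.88, 9.95 and 9.88 with FGF2, against 8.24, 8.48, 8.44 and 8.59 with F2V2 and 7.50, 7.41, 7.25 and 7.58 in control (log2 difference 1.49 ± 0.08 SE, 2.81-fold, adjusted p = 9.57e-08). Kl, encoding the co-receptor Klotho, read 8.73, 8.84, 8.75 and 8.80 with FGF2, against 7.30, 6.98, 7.29 and 7.12 with F2V2 and 7.02, 6.91, 7.21 and 6.59 in control (log2 difference 1.61 ± 0.11 SE, 3.05-fold, adjusted p = 5.12e-07), with F2V2 arrays inside or next to the control range. Fgf9 averaged 8.62 with FGF2, 7.86 with F2V2 and 8.24 in control, and neither ligand alone was called against control. Fgf10 (-0.69) and the decoy receptor Fgfrl1 (-0.68) were lower with FGF2.

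Among Wnt ligands, receptors and co-receptors 2 of 34 were higher (5.88%) and 4 lower (11.8%), against 3.00% and 3.02% over all genes. The median difference of -0.03 turned to 0.01 when each array's median was subtracted. Wnt7b, which the study names, is not among the 34 because no cluster carried its symbol, and it was not analysed here. Wnt2 read 7.60, 7.31, 6.99 and 7.36 with FGF2, against 6.0, 5.67, 5.50 and 6.02 with F2V2 and 6.50, 6.28, 6.15 and 6.29 in control (log2 difference 1.52 ± 0.14 SE, 2.87-fold, adjusted p = 5.29e-06). It was one of 7 genes called on opposite sides of control with the ligands, above control with FGF2 and below with F2V2, and the only one of the 7 with that orientation. The other 6 were Rsad2, Oas1b, Usp18, Isg15, Dhx58 and C3. Wnt7a read 7.25, 7.53, 7.60 and 7.45 with FGF2, against 8.46, 8.78, 8.76 and 8.64 with F2V2 and 8.76, 8.73, 8.66 and 8.52 in control, so that F2V2 and control arrays overlapped and FGF2 lay below (log2 difference -1.20 ± 0.09 SE, 2.3-fold, adjusted p = 9e-07). The receptor Fzd1 showed the same arrangement of means, at 6.99 with FGF2, 8.10 with F2V2 and 8.06 in control, and Lgr5 averaged 7.73 with FGF2, 8.56 with F2V2 and 8.80 in control. Of 27 canonical Wnt targets, feedback genes and secreted antagonists none was called higher and 2 lower, Sfrp2 and Dkk3 (median difference -0.09). At an unadjusted p under 0.05, 2 of the 27 were higher and 7 lower.

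Neuropeptides, peptide hormones and their receptors included many genes higher with FGF2. Of 57 measured, 18 were higher (31.6%) and 5 lower (8.77%), against 3.00% and 3.02% over all genes, and the median difference was 0.15. Gal, encoding galanin, read 9.40, 9.57, 9.51 and 9.46 with FGF2, against 7.38, 7.61, 7.41 and 7.16 with F2V2 and 6.93, 6.87, 6.94 and 6.90 in control (log2 difference 2.09 ± 0.08 SE, 4.26-fold, adjusted p = 8.73e-09). Calcb, encoding a calcitonin gene-related peptide, read 7.35, 7.16, 7.68 and 7.51 with FGF2, against 5.61, 5.13, 5.44 and 5.05 with F2V2 and 5.51, 5.18, 5.41 and 5.37 in control (log2 difference 2.12 ± 0.13 SE, 4.34-fold, adjusted p = 2.25e-07). F2V2 arrays overlapped control for Calcb and lay slightly above control for Gal. Ucn2, a urocortin, responded strongly to both and read 9.43, 9.58, 9.44 and 9.38 with FGF2, against 7.68, 8.18, 7.36 and 7.60 with F2V2 and 4.89, 4.90, 4.76 and 4.86 in control (log2 difference 1.75 ± 0.13 SE, 3.36-fold, adjusted p = 8.54e-07). Vgf, whose product is cut into neuropeptides, averaged 12.02 with FGF2, 10.90 with F2V2 and 10.13 in control, dynorphin Pdyn 9.91 with FGF2, 8.73 with F2V2 and 8.69 in control and Npy 11.46 with FGF2, 10.63 with F2V2 and 10.48 in control. Stc1, stanniocalcin-1, differed by 1.50, the bradykinin receptor Bdkrb2 by 1.55 and corticotropin-releasing hormone Crh by 1.01. Among general neuron genes 1 of 22 was higher (Gap43, a growth cone protein, 11.21 with FGF2, 10.55 with F2V2 and 10.39 in control) and none lower, with a median difference of 0.00.

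The angiotensin II receptor genes Agtr1a and Agtr2 were called lower with FGF2. Agtr1a read 8.13, 6.11, 6.77 and 6.76 with FGF2, against 8.75, 7.97, 8.68 and 9.18 with F2V2 and 7.0, 7.14, 7.22 and 5.18 in control (log2 difference -1.70 ± 0.47 SE, 3.25-fold, adjusted p = 0.0208). Its groups overlapped at one FGF2 array of 8.13 and one F2V2 array of 7.97. Agtr2 read 7.81, 6.79, 6.84 and 7.09 with FGF2, against 9.59, 9.08, 8.22 and 8.38 with F2V2 and 9.63, 8.29, 8.94 and 7.0 in control (log2 difference -1.69 ± 0.47 SE, 3.22-fold, adjusted p = 0.02), with no overlap between the ligands and a control range that overlapped both. Single arrays decided these calls. The adjusted p of Agtr1a was 0.0665, 0.0521 and 0.0524 without FGF2 replicates 2, 3 and 4 and 0.059 without F2V2 replicate 4, and that of Agtr2 was 0.0585 without F2V2 replicate 1 and 0.056 and 0.0546 without FGF2 replicates 2 and 3. Agt, encoding their precursor ligand angiotensinogen, was below control with both, at 6.44 with FGF2, 6.72 with F2V2 and 8.23 in control, with a ligand difference of -0.28 (95% interval -0.48 to -0.09).

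Hormone and energy metabolism held several genes that were higher with FGF2. Dio3, the deiodinase that inactivates thyroid hormone, read 8.58, 8.79, 8.14 and 8.29 with FGF2, against 5.87, 5.73, 6.25 and 6.55 with F2V2 and 5.64, 5.49, 5.50 and 5.39 in control (log2 difference 2.35 ± 0.17 SE, 5.09-fold, adjusted p = 7.41e-07). FGF2 arrays were separate from all others and F2V2 arrays lay above control by a smaller step. Hexokinase Hk2 read 8.88, 8.74, 8.83 and 8.82 with FGF2, against 7.51, 7.46, 7.61 and 7.59 with F2V2 and 6.97, 6.89, 6.76 and 7.06 in control (log2 difference 1.28 ± 0.07 SE, 2.42-fold, adjusted p = 8.35e-08), and the lactate exporter Slc16a3 read 8.59, 8.07, 8.12 and 7.84 with FGF2, against 6.50, 6.50, 6.43 and 6.41 with F2V2 and 6.33, 5.89, 5.91 and 6.19 in control (log2 difference 1.70 ± 0.14 SE, 3.24-fold, adjusted p = 1.94e-06). With Pdk1 they were the 3 of 15 glycolysis and glucose transport genes called higher, and none was called lower. At an unadjusted p under 0.05, 7 of the 15 were higher and 7 lower, and the list's median difference was 0.02. Ptgs2, cyclooxygenase-2, read 9.79, 9.29, 9.13 and 9.28 with FGF2, against 7.96, 6.83, 7.39 and 7.71 with F2V2 and 7.07, 6.92, 6.57 and 7.12 in control (log2 difference 1.90 ± 0.21 SE, 3.73-fold, adjusted p = 3.65e-05). One-carbon and serine genes split evenly, with 5 of 20 higher, among them mitochondrial Mthfd2 (0.80), and 5 lower, among them cystathionine beta-synthase Cbs (-1.0). Among xenobiotic and glutathione enzymes 8 of 44 were lower and 3 higher with FGF2. Sult1a1, a phenol sulfotransferase among the lower ones, averaged 7.76 with FGF2, 9.26 with F2V2 and 11.08 in control, and Akr1b8, an aldo-keto reductase among the higher ones, averaged 7.14 with FGF2, 5.51 with F2V2 and 3.95 in control.

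Most interferon-stimulated genes were lower with FGF2 than with F2V2. Type I interferons act on a promoter element shared by many antiviral genes. Of 32 measured genes 23 were lower with FGF2 and none higher by limma or by a plain analysis of variance, against 3.02% lower over all genes. At an unadjusted p under 0.05, 28 were lower and none higher, and the median difference was -0.92. The list's median lay at -0.22 relative to control with FGF2 and at 0.60 with F2V2. Rsad2, the antiviral enzyme viperin, read 5.32, 6.26, 5.71 and 5.34 with FGF2, against 7.55, 7.60, 8.28 and 8.84 with F2V2 and 6.47, 7.32, 7.05 and 7.71 in control (log2 difference -2.41 ± 0.32 SE, 5.31-fold, adjusted p = 0.000122). All F2V2 arrays lay above all FGF2 arrays, and control arrays lay between, overlapping those with F2V2. Oas1b, a 2'-5'-oligoadenylate synthetase family member, read 6.09, 6.33, 5.67 and 6.05 with FGF2, against 7.65, 7.89, 8.34 and 7.85 with F2V2 and 6.56, 7.18, 6.87 and 7.02 in control (log2 difference -1.90 ± 0.17 SE, 3.73-fold, adjusted p = 4.58e-06). Usp18, the protease that removes Isg15 from proteins, read 6.82, 7.30, 6.77 and 6.88 with FGF2, against 8.37, 8.71, 8.96 and 9.01 with F2V2 and 7.24, 7.85, 7.53 and 7.69 in control (log2 difference -1.82 ± 0.16 SE, 3.54-fold, adjusted p = 4.57e-06). The list did not take a single position relative to control. Oasl2 read 7.66, 8.17, 7.57 and 7.80 with FGF2, against 9.05, 9.40, 9.89 and 9.63 with F2V2 and 8.98, 9.66, 9.40 and 9.55 in control, with F2V2 at the control level and FGF2 below it (log2 difference -1.70 ± 0.19 SE, 3.24-fold, adjusted p = 2.87e-05), and Irgm and Cmpk2 had means in that order too. Mx1 read 7.42, 8.07, 7.50 and 7.06 with FGF2, against 8.17, 8.89, 9.39 and 9.25 with F2V2 and 7.15, 7.99, 7.89 and 7.85 in control, with FGF2 arrays overlapping control and F2V2 above it (log2 difference -1.41 ± 0.27 SE, 2.66-fold, adjusted p = 0.00212), as did Gbp5, which read 8.20, 8.15, 7.82 and 7.76 with FGF2, against 9.35, 9.34, 9.94 and 9.48 with F2V2 and 7.95, 8.38, 8.21 and 8.28 in control (log2 difference -1.55 ± 0.14 SE, 2.92-fold, adjusted p = 6.5e-06).

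**Figure D3:**
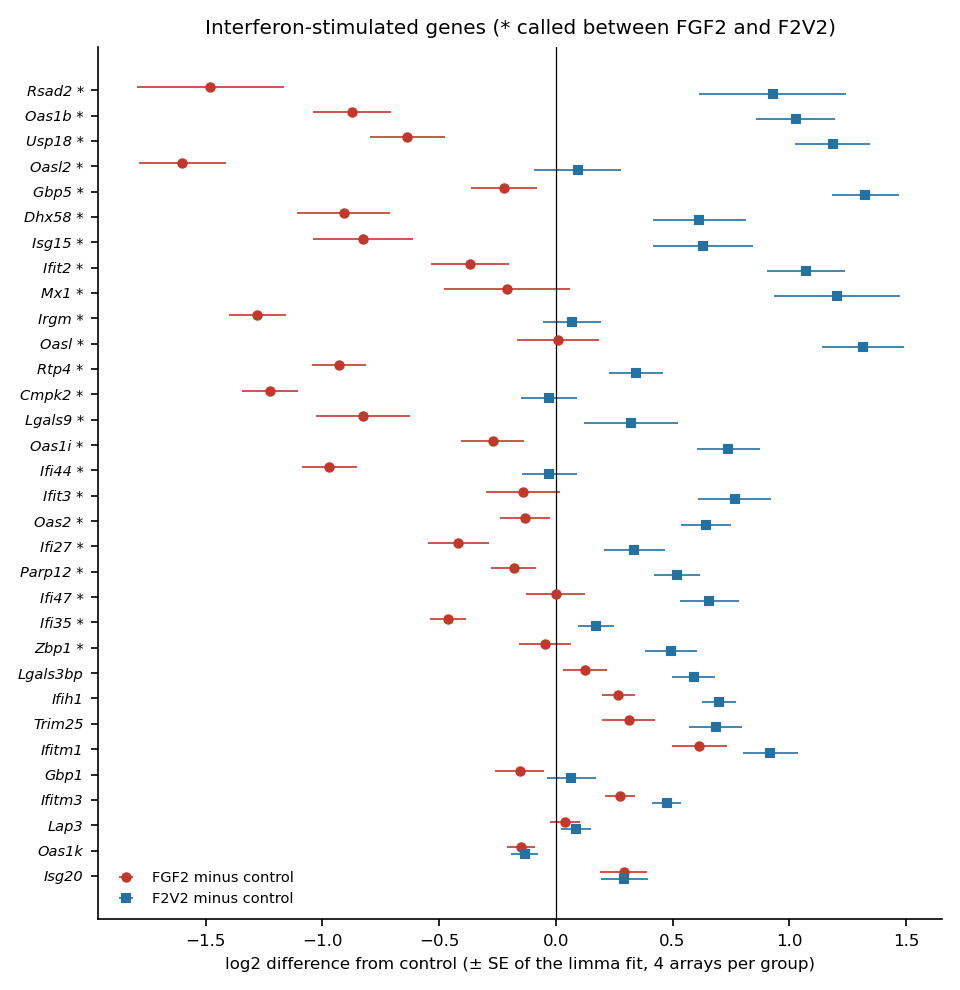
For the 32 measured interferon-stimulated genes (rows, ordered by FGF2 minus F2V2), red circles show FGF2 minus control and blue squares F2V2 minus control (x, log2, bars are the SE of the fit with 4 arrays per group). Stars mark the 23 genes called between the ligands, all lower with FGF2, so that by definition their circle lies left of the square.

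Of 26 regulators of the interferon response 4 were lower and none higher (10 and 4 at an unadjusted p under 0.05, and 4 and none in a plain analysis of variance). Irf7, the interferon-induced transcription factor, read 5.99, 6.46, 6.08 and 5.97 with FGF2, against 6.91, 7.58, 8.10 and 7.55 with F2V2 and 6.35, 6.97, 6.62 and 6.51 in control (log2 difference -1.41 ± 0.21 SE, 2.65-fold, adjusted p = 0.000295). Irf9 averaged 8.84 with FGF2, 9.67 with F2V2 and 9.14 in control and Stat2 8.95 with FGF2, 9.56 with F2V2 and 9.68 in control. In antigen processing for MHC class I, 4 of 17 genes were lower and none higher (11 and none at an unadjusted p under 0.05, median -0.31), among them the immunoproteasome subunits Psmb8 (-0.75) and Psmb9 (-0.63).

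The promoters of Oas1b, Irf7, Rsad2 and Oasl2 are shown with the core of the interferon response element, GAAANNGAAA or its reverse complement, in capitals. They are 120 bases each from chr12:41395843-41395962, minus strand (Oas1b), chr1:205800014-205800133, minus strand (Irf7), chr6:48788191-48788310, minus strand (Rsad2) and chr12:47383256-47383375, minus strand (Oasl2), GRCr8, and the 2 matches in Oas1b overlap.
Oas1b: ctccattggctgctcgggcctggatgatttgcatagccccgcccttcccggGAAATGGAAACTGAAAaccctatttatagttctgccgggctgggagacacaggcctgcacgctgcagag
Irf7: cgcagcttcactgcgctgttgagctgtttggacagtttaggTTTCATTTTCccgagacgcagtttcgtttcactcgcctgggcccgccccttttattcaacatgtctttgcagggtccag
Rsad2: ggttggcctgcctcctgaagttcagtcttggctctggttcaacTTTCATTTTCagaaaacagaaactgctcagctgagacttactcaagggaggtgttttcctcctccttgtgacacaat
Oasl2: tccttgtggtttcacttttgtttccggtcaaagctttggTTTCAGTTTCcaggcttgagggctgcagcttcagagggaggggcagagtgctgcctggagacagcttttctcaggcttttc
The core lay in 11 of the 16 promoters found for interferon-stimulated genes lower with FGF2 (68.8%) and in 4 of the 7 found for list members that were not called. It lay in 3.77% of all promoters and in 5.03% of 338 promoters of other genes lower with FGF2. Among the 345 promoters of genes higher with FGF2 the share was 3.19%. The core also lay in 3 of the 11 promoters found for protease, coagulation and interleukin genes higher with FGF2, among them Mmp13 and Serpinb2.

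Of 50 chemokine and chemokine receptor genes 8 were lower with FGF2 and none higher (17 and 3 at an unadjusted p under 0.05, median difference -0.11). Cxcl11, an interferon-induced ligand of Cxcr3, read 6.06, 6.19, 5.73 and 5.46 with FGF2, against 6.72, 7.41, 7.91 and 7.61 with F2V2 and 4.50, 4.95, 5.04 and 5.02 in control (log2 difference -1.56 ± 0.23 SE, 2.94-fold, adjusted p = 0.000264). Both ligands lay above control and F2V2 lay higher. Cxcl16 averaged 10.50 with FGF2, 11.22 with F2V2 and 10.24 in control, Ccl20 5.31 with FGF2, 6.10 with F2V2 and 5.02 in control and Ccl5 4.73 with FGF2, 5.60 with F2V2 and 4.90 in control. The strongly induced Ccl7 and Ccl2 were not called. Ccl7 read 11.11, 11.16, 11.15 and 11.02 with FGF2, against 11.57, 11.56, 11.52 and 11.17 with F2V2 and 5.90, 6.56, 6.58 and 6.45 in control (log2 difference -0.34, 95% interval -0.63 to -0.05, adjusted p = 0.0907). Cxcl1 read 6.72, 6.67, 6.49 and 6.45 with FGF2, against 6.88, 6.95, 7.88 and 6.65 with F2V2 and 4.66, 4.82, 4.32 and 4.61 in control, with overlapping ligand arrays (log2 difference -0.51, 95% interval -0.96 to -0.07, adjusted p = 0.1), and single arrays moved it, to -0.25 without F2V2 replicate 3 (adjusted p = 0.166) and to -0.66 without F2V2 replicate 4, where it was called (adjusted p = 0.0397). Inhibitors and feedback targets of NF-kB included 3 lower genes of 18, Nfkbia (9.61 with FGF2, 10.41 with F2V2 and 9.61 in control), Bcl3 (-0.93) and Birc3, and 1 higher, Ripk3. Vcam1, an adhesion molecule for leukocytes, read 7.59, 7.67, 7.59 and 7.60 with FGF2, against 8.51, 8.41, 9.07 and 8.56 with F2V2 and 9.06, 8.78, 8.77 and 8.83 in control (log2 difference -1.03 ± 0.12 SE, 2.04-fold, adjusted p = 4.21e-05).

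Serpina3n, Lcn2 and Gja5 were above control with F2V2, while their FGF2 arrays overlapped control. Serpina3n, a secreted protease inhibitor of reactive astrocytes, read 7.75, 7.88, 7.53 and 7.90 with FGF2, against 9.55, 9.62, 9.94 and 9.62 with F2V2 and 7.74, 8.09, 7.97 and 7.49 in control (log2 difference -1.92 ± 0.13 SE, 3.78-fold, adjusted p = 4.09e-07). Lcn2, the iron-siderophore carrier lipocalin-2, read 7.11, 7.09, 7.35 and 7.45 with FGF2, against 8.63, 9.03, 9.67 and 9.14 with F2V2 and 7.23, 7.51, 7.54 and 7.10 in control (log2 difference -1.87 ± 0.18 SE, 3.65-fold, adjusted p = 8.1e-06). In both, FGF2 and control arrays overlapped and every F2V2 array stood above them. Gja5, encoding the gap junction protein connexin-40, read 5.27, 4.68, 4.58 and 4.72 with FGF2, against 6.70, 6.90, 7.21 and 7.0 with F2V2 and 4.49, 4.92, 5.04 and 4.50 in control, so that FGF2 and control lay at the floor and the 4.41-fold difference is a lower bound (adjusted p = 1.34e-06). Complement C3 read 8.30, 8.65, 8.42 and 8.09 with FGF2, against 10.05, 9.94, 10.74 and 9.98 with F2V2 and 8.89, 9.60, 9.82 and 9.32 in control (log2 difference -1.81 ± 0.21 SE, 3.5-fold, adjusted p = 4.09e-05), with FGF2 arrays below and F2V2 arrays above control. Reg3g, a secreted lectin, spread widely with F2V2 and read 6.80, 5.62, 5.54 and 5.88 with FGF2, against 7.93, 5.94, 7.70 and 9.11 with F2V2 and 4.92, 5.18, 5.12 and 5.13 in control (log2 difference -1.71 ± 0.49 SE, 3.27-fold, adjusted p = 0.0239). Its FGF2 arrays lay above control, its ligand arrays overlapped, and the call was lost without any one of FGF2 replicates 2, 3 and 4 and F2V2 replicates 1, 3 and 4 (adjusted p = 0.0538 to 0.0668). Of 27 reactive astrocyte genes 9 were lower and 4 higher with FGF2. The higher ones were Clcf1, Ptgs2, Tm4sf1 and B3gnt5. Among 26 microglia genes 2 were lower, Adgre1 (7.93 with FGF2, 8.54 with F2V2 and 7.91 in control) and Lyn (8.42 with FGF2, 9.20 with F2V2 and 8.85 in control), none was higher and the median difference was -0.22. At an unadjusted p under 0.05, 11 of the 26 were lower and none higher. Aif1, a defining microglial gene, averaged 7.69 with FGF2, 7.86 with F2V2 and 7.71 in control (adjusted p = 0.299). The part of microglial number in these genes was not tested.

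Part of the genes of glial identity and of motile cilia were lower with FGF2. Of 21 astrocyte genes 8 were lower and none higher (median difference -0.45), of 17 oligodendrocyte progenitor genes 6 and none (-0.42), and of 24 myelin and oligodendrocyte genes 10 and 1 (-0.37). Cilia and ependymal genes gave 9 of 22 lower and none higher (-0.45). At an unadjusted p under 0.05 these 4 lists had 19, 14, 16 and 16 lower genes. Of 22 fibroblast and pericyte genes 4 were lower and none higher (-0.24), with 9 lower and 3 higher at an unadjusted p under 0.05. Kcnj10, the inward rectifier potassium channel Kir4.1 of glia, read 8.94, 9.01, 8.75 and 9.11 with FGF2, against 10.88, 11.05, 11.11 and 10.88 with F2V2 and 11.13, 11.27, 11.23 and 11.06 in control (log2 difference -2.03 ± 0.08 SE, 4.08-fold, adjusted p = 1.57e-08). F2V2 arrays overlapped control or lay just below it, and every FGF2 array lay lower. Slc6a13, a GABA and taurine transporter, had the lowest difference of all genes and read 7.09, 7.16, 8.0 and 7.09 with FGF2, against 9.81, 9.68, 9.81 and 9.75 with F2V2 and 10.32, 10.85, 10.56 and 10.35 in control (log2 difference -2.42 ± 0.18 SE, 5.36-fold, adjusted p = 8.93e-07). One FGF2 array, at 8.0, lay above the other 3 and still below every F2V2 array. Which cells carried Slc6a13 was not tested. Mal, a proteolipid of compact myelin, was ordered stepwise and read 6.29, 5.98, 6.37 and 6.27 with FGF2, against 7.84, 7.86, 7.67 and 7.98 with F2V2 and 9.27, 9.40, 9.17 and 9.23 in control (log2 difference -1.61 ± 0.09 SE, 3.05-fold, adjusted p = 9.95e-08). Mog averaged 7.96 with FGF2, 8.87 with F2V2 and 9.49 in control and Opalin 7.28 with FGF2, 8.13 with F2V2 and 8.87 in control, while Car2, carbonic anhydrase 2, was the 1 member higher with FGF2, at 8.74 with FGF2, 7.84 with F2V2 and 7.50 in control. The connexins Gjb2 (-1.14) and Gja1 (-0.56) were lower, as was the progenitor receptor Gpr17 (-0.82). Among cilia genes the dynein light chain Dnali1 averaged 7.49 with FGF2, 8.46 with F2V2 and 8.98 in control and Enkur 8.84 with FGF2, 9.74 with F2V2 and 10.0 in control. The ciliogenesis factor Rfx2 differed by -0.61. Sned1, a matrix glycoprotein, read 6.57, 5.82, 5.91 and 6.14 with FGF2, against 7.75, 7.40, 8.29 and 8.27 with F2V2 and 7.04, 7.84, 7.98 and 7.20 in control (log2 difference -1.82 ± 0.25 SE, 3.52-fold, adjusted p = 0.000165).

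**Figure D4:**
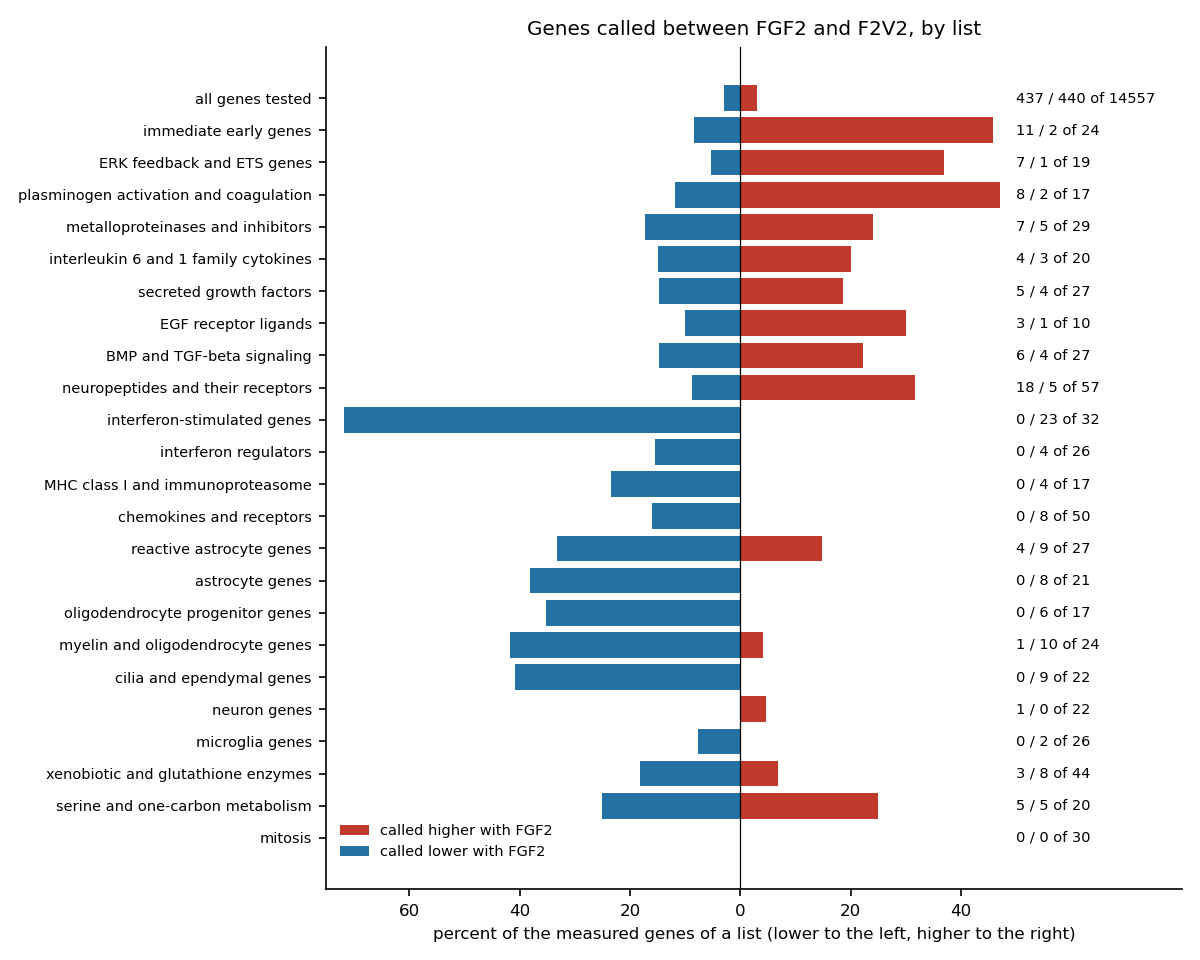
For 23 gene lists and all genes tested (rows), bars give the percentage of measured genes called higher with FGF2 (right, red) and lower with FGF2 (left, blue), with the counts at the right margin as higher / lower of measured. Interferon-stimulated genes reach 71.9% lower, immediate early genes reach 45.8% and plasminogen and coagulation genes 47.1% higher, and mitosis genes have no call in either direction.

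Not every strong response was called different between the ligands. A mean response of at least 2-fold was found in 515 genes, of which 295 were called between FGF2 and F2V2. For 94 of them (18.3%) the 95% interval of the difference lay wholly within 1.4-fold, 65 above and 29 below control, and for the remaining 126 the interval crossed that bound. Ccl2, a monocyte chemokine, averaged 12.90 with FGF2, 13.05 with F2V2 and 10.33 in control, with a ligand difference of -0.14 (95% interval -0.39 to 0.10). Rgs16, a regulator of G protein signaling, averaged 12.07 with FGF2, 11.86 with F2V2 and 9.41 in control (difference 0.21, 95% interval 0.02 to 0.40). Id3, an inhibitor of differentiation induced by BMP, lay below control with both, at 8.73 with FGF2, 8.97 with F2V2 and 10.62 in control (difference -0.25, 95% interval -0.45 to -0.04). Adamts1, a matrix protease, read 10.74, 10.67, 10.70 and 10.70 with FGF2, against 10.46, 10.26, 10.42 and 10.40 with F2V2 and 7.45, 7.25, 7.68 and 7.18 in control. Its FGF2 and F2V2 arrays did not overlap, but the difference was small beside the response (difference 0.32, 95% interval 0.12 to 0.51, adjusted p = 0.0236). Timp1, the inhibitor of metalloproteinases, read 12.67, 12.61, 12.58 and 12.70 with FGF2, against 12.41, 12.42, 12.29 and 12.32 with F2V2 and 10.99, 11.38, 11.22 and 11.01 in control (difference 0.28, 95% interval 0.11 to 0.45, adjusted p = 0.0225). Its ligand arrays did not overlap either, and the interval lay within 1.4-fold. Sucnr1, the succinate receptor, read 4.83, 4.67, 4.44 and 4.78 with FGF2, against 4.91, 4.99, 5.0 and 4.90 with F2V2 and 7.48, 6.97, 6.90 and 6.93 in control, at the floor with both ligands. Among 30 mitosis genes limma and a plain analysis of variance called none between the ligands, and at an unadjusted p under 0.05 5 were higher and 1 lower with FGF2 (median difference 0.10). The list's median lay 0.87 above control with FGF2 and 0.77 with F2V2. DNA replication genes, with medians of 1.07 and 0.62 above control in the same order, had 10 of 37 called higher with FGF2 and none lower.

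**Figure D5:**
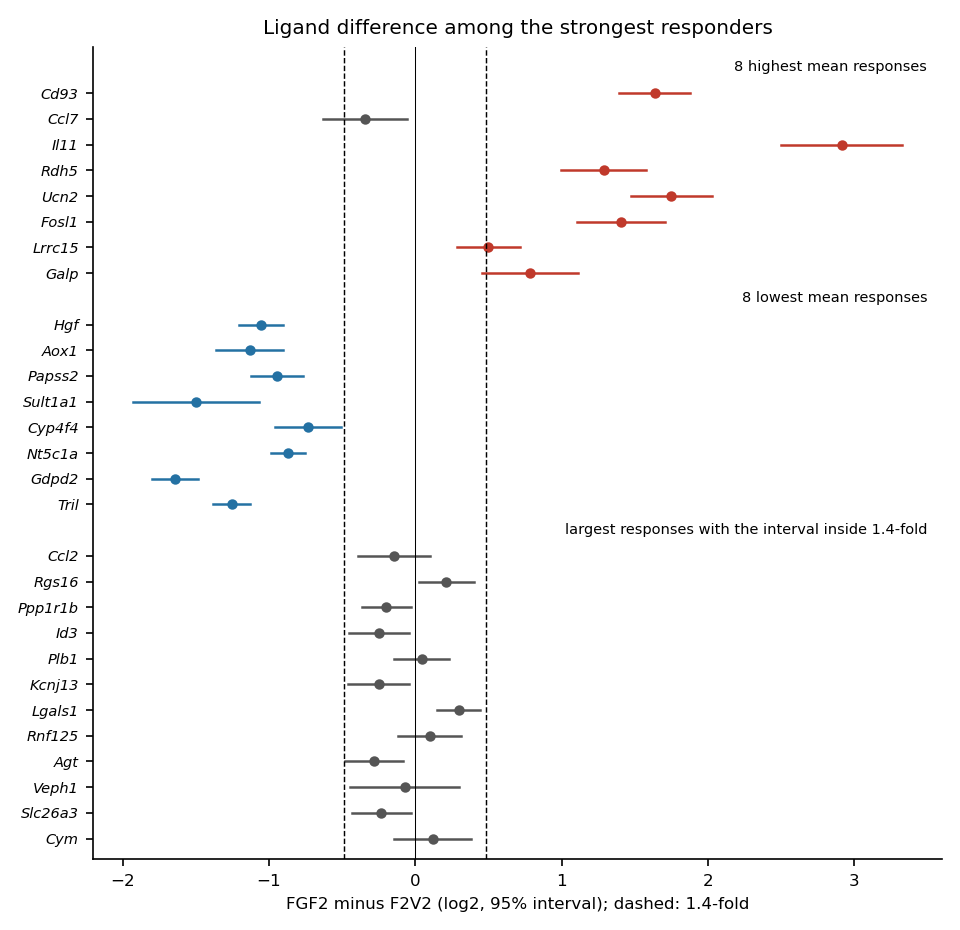
FGF2 minus F2V2 (x, log2) with its 95% interval for the 8 highest and 8 lowest mean responses over control and for the 12 largest responses whose interval lies inside 1.4-fold (dashed lines). Red and blue genes were called higher and lower with FGF2, and grey genes were not called.

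At the top of the response to both ligands stood Cd93, a lectin-like receptor of endothelium and myeloid cells, which read 10.77, 10.74, 10.79 and 10.63 with FGF2, against 9.16, 9.40, 8.95 and 8.88 with F2V2 and 4.63, 4.43, 4.30 and 4.72 in control. FGF2 lay 3.11-fold above F2V2 (adjusted p = 5.28e-07), and both were far above control arrays at the floor. Rdh5, a retinol dehydrogenase, read 10.90, 10.87, 10.88 and 10.75 with FGF2, against 9.59, 10.01, 9.23 and 9.43 with F2V2 and 6.0, 6.08, 6.02 and 6.38 in control (log2 difference 1.29 ± 0.14 SE, 2.44-fold, adjusted p = 1.95e-05). Lrrc15, a leucine-rich repeat membrane protein, read 10.28, 10.55, 10.41 and 10.56 with FGF2, against 9.99, 10.20, 9.83 and 9.79 with F2V2 and 6.97, 6.67, 6.91 and 6.74 in control and sat at the edge of the call (log2 difference 0.50 ± 0.10 SE, 1.41-fold, adjusted p = 0.00284), with log2 differences of 0.44 to 0.47, under 1.4-fold, without FGF2 replicate 2 or 4 or F2V2 replicate 3 or 4. Aox1, aldehyde oxidase, was among the lowest responses and read 5.70, 5.88, 6.08 and 5.54 with FGF2, against 6.79, 7.04, 7.05 and 6.85 with F2V2 and 8.97, 8.90, 8.94 and 9.13 in control (log2 difference -1.13 ± 0.10 SE, 2.19-fold, adjusted p = 6.5e-06). Snai1, a transcriptional repressor, read 6.73, 6.80, 6.72 and 6.88 with FGF2, against 4.76, 5.01, 4.41 and 4.71 with F2V2 and 4.22, 4.15, 3.94 and 3.90 in control, with F2V2 near the floor, so that 4.17-fold is a lower bound (adjusted p = 9.15e-08). Its F2V2 arrays still all lay above control (log2 difference 0.67, limma adjusted p = 0.000383 for F2V2 against control).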

How the data were processed

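RNA of 16 samples was hybridised to Affymetrix Rat Gene 2.1 ST arrays, and 12 arrays were analysed (FGF2, F2V2 and control, 4 each). The deposited values are log2 intensities per transcript cluster. The authors normalised probe sets with GCRMA and summarised them to transcript clusters by one-step Tukey biweight in Partek 6.6, per the submitters' notes and the methods. Such values compress differences near the floor and hold no read depth, so that the number of arrays limits the precision.

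Of 36685 clusters, 15653 had a gene symbol and were tested. Differences were fitted in limma 3.58.1 (R 4.3.3, lmFit and eBayes, no replicate block) with Benjamini-Hochberg adjustment, and the fit was tested on simulated data. A call needed an adjusted p under 0.05 and 1.4-fold. For lists, 1 cluster per gene was kept, the one with the highest mean, giving 14557 genes. Intervals are at the 95% level.

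Genes were named by rule: the 12 highest and 12 lowest called differences without overlap between the ligands, up to 3 called members of each of 53 lists by lowest adjusted p, the 8 highest and 8 lowest mean responses, genes called on opposite sides of control, the 8 genes with F2V2 furthest beyond FGF2, and genes the study names. Values on every array are given for 60 genes, of which Sucnr1, Ccn1, Ccn2, Gbp5, Adamts1 and Mx1, like other genes given by mean or difference only, were chosen after their values were seen. The members and lists were chosen with earlier results of these data known. Promoter sequences came from RefSeq (GRCr8), with a promoter found for 11787 of 14557 genes. Alternatives changed the normalisation, the filter, the fold threshold, the prior, the arrays in the fit and the test.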

Additional observations from a re-analysis of the deposited data

Results flagged for a closer look

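Among 180 sets of 4 arrays of 1 group (60 genes in 3 groups), 11 held an array far from the other 3 by Dixon's test at the 95% level, where chance gives about 1 in 20. With FGF2 these were Slc6a13 in replicate 3, at 8.0 against 7.09 to 7.16, and Hgf in replicate 1, at 6.44 against 6.38 to 6.39. With F2V2 they were C3 in replicate 3, at 10.74 against 9.93 to 10.05, Smad3 in replicate 3, at 8.48 against 8.28 to 8.31, and Ccl7 in replicate 4, at 11.17 against 11.52 to 11.57. In control they were Egr2 in replicate 4 (6.38 against 6.09 to 6.11), Flt1 in replicate 1 (4.94 against 5.14 to 5.18), Mx1 in replicate 1 (7.15 against 7.85 to 7.99), Agtr1a in replicate 4 (5.18 against 7.00 to 7.22), Hgf in replicate 3 (9.84 against 9.76 to 9.77) and Sucnr1 in replicate 1 (7.48 against 6.90 to 6.97).

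On the 4 wtFGF2 arrays, which the report's tests left out, Cd93 averaged 9.89 (9.75 to 10.07), Il11 8.57 (8.46 to 8.72) and Mmp13 7.83 (7.49 to 8.17), in each case above every control array.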

How the results depend on the processing

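Among 60 genes with values on every array under 22 alternatives each, 1293 of 1320 pairs kept direction and side of the threshold, 26 lost the call (Agtr1a, Agtr2, Ccn2, Reg3g and Lrrc15), 1 gained it (Cxcl1) and none turned direction. Without a fold threshold 3356 clusters passed, 1846 higher and 1510 lower with FGF2, and 607 list members, and at 2-fold 184 passed (106 and 78), with 98 list members, 15 interferon-stimulated genes lower and 9 neuropeptide genes higher, where the report has 907 (452 and 455), 303, 23 and 18. Among clusters whose mean response had an adjusted p under 0.05, FGF2 lay further from control for 94.3%. Without dim clusters 8021 genes had a close response, since fewer clusters were tested. Subtracting each array's median gave 534 higher and 410 lower, 56.6% higher against 49.8%, and moved the median difference to 0.049, against 0.015 as reported.

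Leaving out 1 array at a time gave 830 to 957 called clusters (398 to 488 higher, 423 to 485 lower), FGF2 further from control for 88.5% to 91%, 285 to 317 called list members, 23 to 24 interferon-stimulated genes lower, 17 to 19 neuropeptide genes higher, 11915 to 12285 close responses, and the interferon element core in 68.8% to 72.2% of promoters. With the replicate number as a block 896 clusters were called (448 higher, 448 lower). Same-numbered arrays correlated at -0.12 to 0.22 in their deviations from the group means, and own-numbered arrays did not always correlate best. This correlation over all clusters cannot decide whether the numbers pair the arrays. Replicate 1 read lowest both with F2V2 and in control for Rsad2, Oas1b, Usp18, Oasl2, Mx1, Irf7 and Cxcl11, but not for Gbp5.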

Other observations

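The wtFGF2 arrays, whose dose is not given, were set beside the 12 genes most above and the 12 most below in FGF2 against F2V2, with no test. The wtFGF2 mean lay between the FGF2 and F2V2 means for 12 of the 12 higher and 11 of the 12 lower genes. It was nearer to FGF2 than to F2V2 for 5 of the 12 higher and 8 of the 12 lower genes, and for 23 of the 23 interferon-stimulated genes lower with FGF2. All these genes were chosen by their FGF2 and F2V2 values, so the counts do not place wtFGF2 for genes in general. Over the 24 leading genes wtFGF2 minus FGF2 ranged from -1.89 to 1.52 on the log2 scale, with a median absolute value of 1.21. Serpina3n averaged 8.99 with wtFGF2 (8.63 to 9.24), above every control array and nearer to F2V2 (9.68) than to FGF2 (7.76). Lcn2 averaged 7.03 and Gja5 5.31 with wtFGF2, both nearer to FGF2.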
